A study of Mus musculus with 6 samples.

Results

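Small nucleolar RNA (snoRNA) host genes were taken by symbol from the expression table of Mrps5 mutant and control embryonic mouse hearts. The set named 9 hosts, Gas5, Snhg1, Snhg3, Snhg4, Snhg5, Snhg6, Snhg8, Snhg12 and Snhg15. Of these, 8 were listed in the table, out of 26191 genes, and all 8 passed the filter on low values (3 or more libraries at or above 1 FPKM), which 13260 genes passed. No level of Snhg15 was analysed here. The 8 listed hosts held 29 of the 60776 transcript rows. FPKM, a count of fragments set against transcript length and library size, was summed over the rows of a gene, so levels of different genes are compared per length.

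The 3 control libraries came from Mrps5 fl/fl hearts and the 3 mutant libraries from Mrps5 fl/fl; cTNT-Cre littermates, all at embryonic day 12, so both groups carried the floxed alleles of this mitochondrial ribosomal protein gene. Each library was a pool of several whole hearts. Cre was driven by the cardiac troponin T promoter and recombines the floxed gene in cardiomyocytes, while the other cells of these hearts keep Mrps5. The labels did not say whether the control mice carried any other transgene. Total RNA was depleted of ribosomal RNA and made into strand-specific libraries with fragments selected at about the length of the longer snoRNAs.

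Mrps5 was at 9.65 to 11.4 FPKM in the controls. Mutant replicate 1 had 5.28 FPKM and mutant replicate 2 had 7.41 FPKM. The library labelled mutant replicate 3 had 10.4 FPKM, inside the control range, so the host counts and medians below were also computed without that library. All 13 cardiomyocyte markers were lower in mutants, 8 of them at an unadjusted p under 0.05, beside 9.43% of all genes that were lower at that threshold, and together they made up 2.73 to 3.26% of summed FPKM in controls and 1.99 to 2.48% in mutants. Erythroid markers (17 of 18 listed) made up 12.0 to 13.3% of summed FPKM in controls, 23.5% in mutant replicate 1, 10.8% in mutant replicate 2 and 22.03% in mutant replicate 3. In these bulk libraries, fewer cells of a type and less RNA per cell cannot be told apart. Summed FPKM was 454692 to 515952 per library. The number of reads behind it is unknown, so no counting interval is given, and a 0 can be a failed estimate.

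A snoRNA host is transcribed as a precursor whose introns hold snoRNAs. Splicing releases each intron, exonucleases trim it to the mature snoRNA, and the snoRNA then guides the modification of ribosomal RNA in the nucleolus. Box C/D snoRNAs direct ribose methylation and box H/ACA snoRNAs direct pseudouridylation. The spliced exons of the noncoding hosts hold only short reading frames, and in several hosts they are removed by nonsense-mediated decay, which needs a translating ribosome and the factor UPF1. Many hosts belong to the terminal oligopyrimidine (TOP) genes, whose RNAs start with a cytosine and a run of pyrimidines and which mostly encode ribosomal proteins and translation factors. The level of the spliced host and the output of its snoRNAs can therefore differ.

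For 7 of the 8 listed hosts, the GENCODE M21 annotation of the GRCm38 build gave gene positions, which were 161034422 to 161038539 on chromosome 1 for Gas5, 9941959 to 9944118 on chromosome 1 for Snhg6, 123507552 to 123508404 on chromosome 3 for Snhg8, 132308623 to 132311024 on chromosome 4 for Snhg12, 132348014 to 132353686 on chromosome 4 for Snhg3, 88521050 to 88522929 on chromosome 9 for Snhg5 and 8723475 to 8726443 on chromosome 19 for Snhg1. These genes hold 29 snoRNA entries of 60 bases or more, among them 2 overlapping entries each for Snord80 and Snora16a. Gas5 holds 10 of them and Snhg1 holds 8. The letters of both a C box (TGATGA) and a D box (CTGA) near the ends were found in 17 entries, a terminal ACA in 6 and neither in 6. The following snoRNAs belong to the hosts that the comparison turns on, with those box letters in capitals.
Snord87 in Snhg6: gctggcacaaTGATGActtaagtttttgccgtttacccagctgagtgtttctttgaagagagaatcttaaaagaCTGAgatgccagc
Snord99 in Snhg12: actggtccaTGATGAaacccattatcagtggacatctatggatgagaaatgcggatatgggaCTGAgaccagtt
Snora61 in Snhg12: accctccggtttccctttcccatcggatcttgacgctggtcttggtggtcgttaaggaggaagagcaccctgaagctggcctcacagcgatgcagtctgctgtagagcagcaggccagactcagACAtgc
Snord80 in Gas5: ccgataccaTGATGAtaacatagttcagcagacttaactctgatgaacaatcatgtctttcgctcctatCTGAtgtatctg
Snora73a in Snhg3: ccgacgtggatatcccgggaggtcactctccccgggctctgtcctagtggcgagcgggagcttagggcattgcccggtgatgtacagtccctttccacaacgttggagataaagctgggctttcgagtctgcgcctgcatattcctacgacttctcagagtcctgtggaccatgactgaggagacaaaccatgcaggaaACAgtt
None of the 30 mature snoRNAs looked for by name was listed in the expression table. Several snoRNAs of Gas5 and Snhg1 have other symbols in GENCODE M21, such as Gm26224 and Gm25855, and were not looked for under those. The hosts were measured here, and no snoRNA level is given.

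The first 30 bases of the host transcripts were read for pyrimidine runs like those of TOP RNAs. All 7 hosts with an annotated transcript had at least 1 row with an unbroken run of 5 or more pyrimidines within the first 20 bases, 19 of 26 rows in all. The share of all transcripts with such a run was not computed, so the count does not set the hosts apart from other genes. The sequences below are the starts of the row of each host with the longest run, or of 1 of the rows that tie, with that run in capitals. They are not always the main row. The most abundant control row had a longest run of 5 in Snhg1, 3 in Snhg3 and 2 in Snhg12, and the Snhg3 row shown held 6.58% of that host's control FPKM.
Gas5: agCCTTTCggagctgtgcggcattctgagc
Snhg1: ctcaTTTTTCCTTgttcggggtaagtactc
Snhg3: CTCTCTaggcgtcgctctcttggtgtgctt
Snhg5: TTCTTTTacgacggagcctaagatattctt
Snhg6: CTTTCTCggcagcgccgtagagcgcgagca
Snhg8: CCCTCgcgcgcaggctcttgggagagcgtc
Snhg12: TTTCTCgcttcatccgcggtccctgtctgt
Annotated starts can differ from the true one, and these letters describe the annotation rather than a measured start. RefSeq promoter windows (GRCm38.p6) were found for 8 starts of 7 of the named hosts, Snhg15 among them. In the window of Snhg8 the start shown above lies upstream of the letters TATAAA, and the pyrimidine run at the RefSeq start lies downstream of them. A pyrimidine run of 6 or more around the start was in 4 of the 8, against 21% of 32851 promoters, and the letters TATAAA on either strand were in 4 of the 8, against 13.6%.

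Below, the values of a group stand in the order of its replicates 1, 2 and 3. The hosts covered a wide range of levels. Gas5, which carries a growth-arrest transcript and 10 snoRNA entries, was highest, at 143 ± 17.6 FPKM in controls (SD, n = 3), above 97.4% of the genes fitted. Snhg1 followed at 49.2 ± 2.49 FPKM, and then came Snhg8, Snhg3, Snhg6, Snhg5, Snhg4 and Snhg12, the last at 15.5 ± 1.42 FPKM. In the controls the ranges of these neighbours in the order overlapped for Snhg8 and Snhg3, Snhg3 and Snhg6, Snhg6 and Snhg5, and Snhg4 and Snhg12. Among the same neighbours in the mutants, the ranges of Snhg4 and Snhg12 overlapped, and Snhg6 lay above Snhg3 in all 3 libraries. The libraries themselves differed across both groups, since 6 of the 8 hosts were highest in mutant replicate 2 and 5 of the 8 were lowest in control replicate 3.

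**Figure D1:**
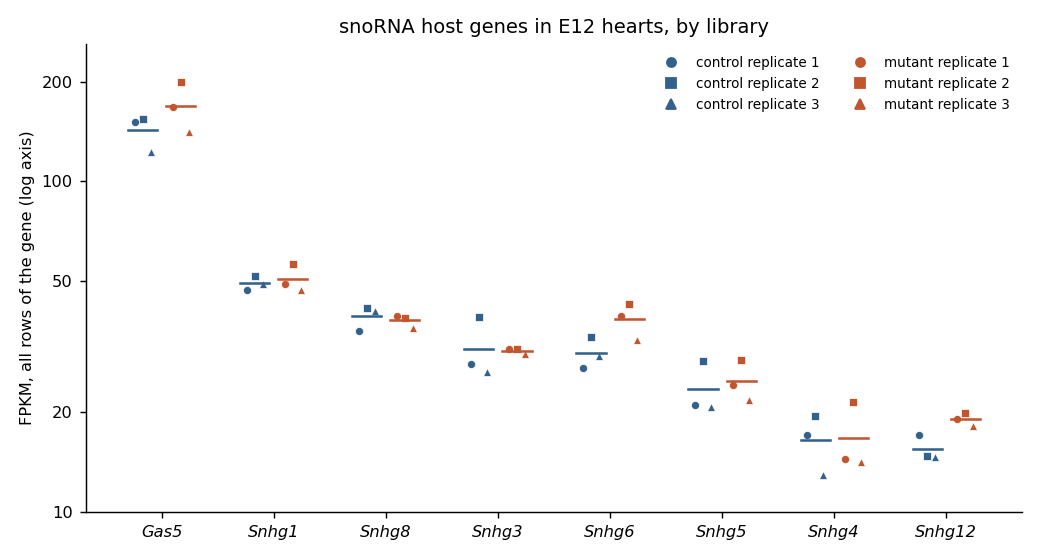
FPKM of each snoRNA host gene (all rows summed, log axis) in the 3 control and 3 mutant libraries, with symbols for the replicate numbers and a line at each group mean. Snhg12 is the host whose 3 mutant libraries, at 18.2 to 19.95 FPKM, all lie above its 3 control libraries, at 14.6 to 17.1 FPKM.

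The comparison of mutant with control hearts asked whether loss of a mitochondrial ribosomal protein in cardiomyocytes moved the hosts. The spliced RNAs of several hosts are turned over with cytosolic translation, and decay was not measured here. No host reached an adjusted p under 0.05 (limma with Benjamini-Hochberg adjustment over 13260 genes), where 0.083% of all genes did. Snhg12 and Snhg6 had an unadjusted p under 0.05, and both were higher in mutants. That is 2 of 8 hosts, where 15% of all genes passed that threshold in either direction and 5.57% passed it with a higher level in mutants. By mean log2 value 7 of the 8 hosts were higher in mutants, with a median log2 fold change of 0.0613, beside -0.0207 over all genes fitted. The count was 4 of 8 with a median of -0.0204 after rescaling to a common sum of FPKM. There the median of all genes was -0.0942 and 28.8% of them were higher (45% before rescaling). Without mutant replicate 2 the count was 3 of 8 with a median of -0.0114, where 38.7% of all genes were higher with a median of -0.0542. Without the library labelled mutant replicate 3 it was 7 of 8 with a median of 0.145, where 48.3% of all genes were higher. From the most abundant row of each host the median was -0.0067. The number of hosts at an unadjusted p under 0.05 was 0 at a common sum of FPKM, 1 from the most abundant row, and 1, 1 and 0 without control replicate 1, 2 or 3. It was 1 without mutant replicate 1, 1 without mutant replicate 2 and 3 without the library labelled mutant replicate 3. Over all genes that threshold was passed by 1994 of 13273 at a common sum and 1577 of 12906 from the most abundant row. It was passed by 1179 of 13067, 1641 of 13068 and 1524 of 13123 without control replicate 1, 2 or 3. Without mutant replicate 1, 2 or 3 it was passed by 1499 of 13141, 2173 of 13113 and 2012 of 13166 (15.3%).

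**Figure D2:**
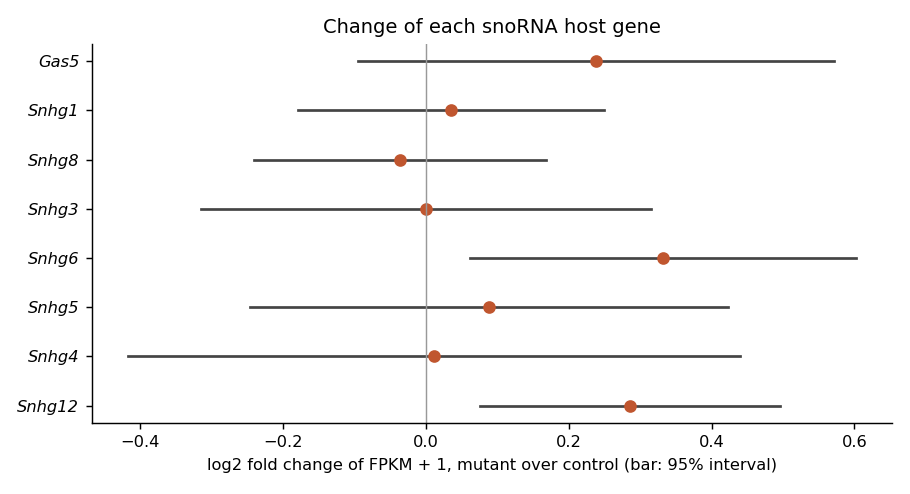
Log2 fold change of FPKM + 1 of each host in mutant over control hearts, as points with 95% intervals from limma. The intervals of Snhg6 and Snhg12 lie above 0 and those of the other 6 hosts include it.

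Snhg12, which carries Snora16a, Snora44, Snora61 and Snord99 in its introns, was at 17.1, 14.7 and 14.6 FPKM in controls and at 19.1, 19.95 and 18.2 FPKM in mutants. The groups did not overlap, as in 7.74% of all genes in that direction, and Snhg12 was the single host of the 8 with that separation. Its mean was 15.5 ± 1.42 FPKM in controls and 19.1 ± 0.889 FPKM in mutants (SD, n = 3), a log2 fold change of 0.29 with a standard error of 0.09 (adjusted p = 0.223 from limma). The 95% interval of the fold was 1.05 to 1.41. The log2 fold change was 0.21 at a common sum of FPKM, 0.20 from the most abundant row and 0.25 without control replicate 2 or 3, and in none of these was the unadjusted p under 0.05.

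Snhg6, the host of the single C/D box snoRNA Snord87, was at 27.3, 33.8 and 29.5 FPKM in controls and at 39.2, 42.6 and 33.2 FPKM in mutants. The lowest mutant value came from the library labelled mutant replicate 3 and lay just under the highest control value. The log2 fold change was 0.33 with a standard error of 0.12 (adjusted p = 0.258 from limma), and the interval of the fold was 1.04 to 1.52. Leaving out 1 library gave log2 fold changes of 0.25 (without mutant replicate 2) to 0.43 (without the library labelled mutant replicate 3). The unadjusted p of Snhg6 was no longer under 0.05 without control replicate 1 or 3, without mutant replicate 1 or 2, or at a common sum of FPKM, where the log2 fold change was 0.25.

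Gas5 was at 151, 154 and 122 FPKM in controls and at 167, 199 and 141 FPKM in mutants. Control replicates 1 and 2 lay above the library labelled mutant replicate 3, so the groups overlapped. The log2 fold change was 0.24 with a standard error of 0.15 (adjusted p = 0.479 from limma), and the interval of the fold, 0.936 to 1.49, included 1. The value depended on single libraries, at 0.11 without mutant replicate 2, 0.13 without control replicate 3 and 0.36 without the library labelled mutant replicate 3. It was 0.15 at a common sum of FPKM, 0.02 from the most abundant row of Gas5 and 0.39 with the erythroid level of each library as a covariate.

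For the other 5 hosts the mean levels of the groups lay closer together. Snhg1, whose introns hold a series of C/D box snoRNAs, was at 46.9, 51.8 and 49.0 FPKM in controls and 48.7, 56.1 and 46.8 FPKM in mutants, with an interval of the fold of 0.883 to 1.19. Snhg8, the host of Snora24, was at 35.2, 41.2 and 40.6 FPKM in controls and 39.1, 38.6 and 36.1 FPKM in mutants, with an interval of 0.846 to 1.124. The groups overlapped in both, and the upper bound for Snhg1 lies near the fold of 1.22 measured for Snhg12. Snhg5, the host of the near-identical Snord50a and Snord50b, was at 21.01, 28.6 and 20.8 FPKM in controls and 24.2, 28.8 and 21.7 FPKM in mutants, with an interval of 0.843 to 1.34. Snhg3 was at 28.1, 39.0 and 26.5 FPKM in controls and 31.1, 31.0 and 30.1 FPKM in mutants, with an interval of 0.804 to 1.24. Snhg4 was at 17.04, 19.5 and 12.95 FPKM in controls and 14.5, 21.5 and 14.2 FPKM in mutants, with an interval of 0.749 to 1.36. Replicate 2 was the highest library of its group in both groups for 5 of the 8 hosts, Gas5, Snhg1, Snhg4, Snhg5 and Snhg6.

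The summed level of a host mixes rows of fully spliced transcripts with rows that keep intron sequence. By the exon positions of the annotation, 17 of the 26 rows that could be classed were free of snoRNA sequence and 9 overlapped at least part of a snoRNA. This division was made after the levels had been seen. Rows free of snoRNA sequence stand for the spliced exons that decay can act on and are called spliced rows below, although 1 of them, in Gas5, is annotated as a retained intron. In 16 of these 17 rows the stop codon of the reading frame opened by the first ATG lay more than 50 bases before the last exon junction, the arrangement that marks a transcript for nonsense-mediated decay. The same held for 9 of the 9 rows that overlap a snoRNA, so it does not tell the classes apart. The reading frames of the 17 rows were 1 to 54 codons long. How the fragments were divided between overlapping rows is not stated, so values of single rows are less certain than their sum.

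Counted from rows free of snoRNA sequence alone, 4 of the 7 classed hosts, Snhg3, Snhg12, Snhg6 and Gas5, had an unadjusted p under 0.05, all with a higher level in mutants, where 5.59% of all genes did in the same fit. None had an adjusted p under 0.05 in that fit, and the lowest was 0.2 (limma). The median log2 fold change of the 7 hosts was 0.33. The count was 2 of 7 without mutant replicate 2, beside 6.58% of all genes that were higher at that threshold, and 2 of 7 after rescaling to a common sum of FPKM, beside 2.76%. Without the library labelled mutant replicate 3 it was 4 of 7, beside 6.4%, and the adjusted p of Snhg3 was then 0.0403 (limma), in a fit where 1.99% of all genes had an adjusted p under 0.05. Over the rows that overlap a snoRNA, 1 of 5 hosts had an unadjusted p under 0.05, and it was Snhg3, with a lower level in mutants, as in 9.44% of all genes in that fit.

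The spliced rows of Gas5 summed to 75.8, 73.8 and 67.3 FPKM in controls and to 95.5, 114 and 77.5 FPKM in mutants. All 3 mutant values lay above all 3 control values, a log2 difference of 0.38 (limma, adjusted p = 0.261). It was 0.25 without mutant replicate 2 and 0.30 at a common sum of FPKM, both with an unadjusted p above 0.05, and 0.53 without the library labelled mutant replicate 3. The rows of Gas5 that overlap a snoRNA summed to 75.5, 80.5 and 55.1 FPKM in controls and to 71.9, 85.2 and 63.5 FPKM in mutants. Those groups overlapped, with a log2 fold change of 0.07. Divided by the annotated transcript type instead, the retained-intron rows of Gas5 differed by 0.06 on the log2 scale and its other rows by 0.42.

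Snhg12 showed the same order at a lower level. Its rows free of snoRNA sequence were at 7.30, 5.47 and 6.64 FPKM in controls and 9.45, 8.20 and 8.58 FPKM in mutants, without overlap (log2 fold change 0.39, adjusted p = 0.2 from limma). Its rows that overlap a snoRNA were at 9.83, 9.27 and 7.97 FPKM in controls and 9.63, 11.8 and 9.60 FPKM in mutants, with overlap and a log2 fold change of 0.18. In Snhg1 the spliced rows differed by 0.11 and the rows with snoRNA sequence by -0.14, and in Snhg5 by 0.06 and 0.15, all with overlapping groups.

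Snhg3, whose 2 snoRNAs Snora73a and Snora73b are the longest of these hosts and near copies of each other, had similar sums in both groups over rows that differed in opposite directions. The row ENSMUST00000155816, a spliced transcript of 332 bases, was at 1.58, 3.15 and 1.26 FPKM in controls and at 9.98, 11.4 and 4.15 FPKM in mutants. Its groups did not overlap, and its share of the host's mean FPKM was 6.4% in controls and 27.8% in mutants. The row ENSMUST00000141090, which starts inside a snoRNA and holds 159 bases of it, was at 24.9, 32.5 and 24.0 FPKM in controls and at 19.6, 17.1 and 24.5 FPKM in mutants. It held 87.0% of the host's mean FPKM in controls and 66.3% in mutants. Reads of the mature snoRNA cannot be told apart from reads of such a row. The other spliced row, ENSMUST00000151374, was at 1.63, 3.28 and 1.245 FPKM in controls and at 1.53, 2.52 and 1.46 FPKM in mutants, with overlap. Summed over both spliced rows, Snhg3 was at 3.21, 6.42 and 2.51 FPKM in controls and 11.5, 14.0 and 5.61 FPKM in mutants, which overlapped in 1 pair of libraries (log2 fold change 1.17, adjusted p = 0.2 from limma). The higher sum in mutants thus rests on ENSMUST00000155816.

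Whether the classes of row differed in their response was tested on the log2 ratio of spliced rows to rows with snoRNA sequence in each library. With 3 libraries against 3 the smallest two-sided p of the exact permutation test is 0.1, so no ratio could pass 0.05. The mean ratio was higher in mutants by 1.56 for Snhg3 (exact permutation p = 0.1), by 0.25 for Snhg1 (p = 0.1, exact), by 0.31 for Gas5 (p = 0.2, exact) and by 0.21 for Snhg12 (p = 0.4, exact). For Snhg5 the difference was -0.0907 (p = 0.8, exact). With adjustment over the 6 ratios computed here the smallest value was 0.2. The mutant and control ratios of Snhg3 and Snhg1 did not overlap.

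**Figure D3:**
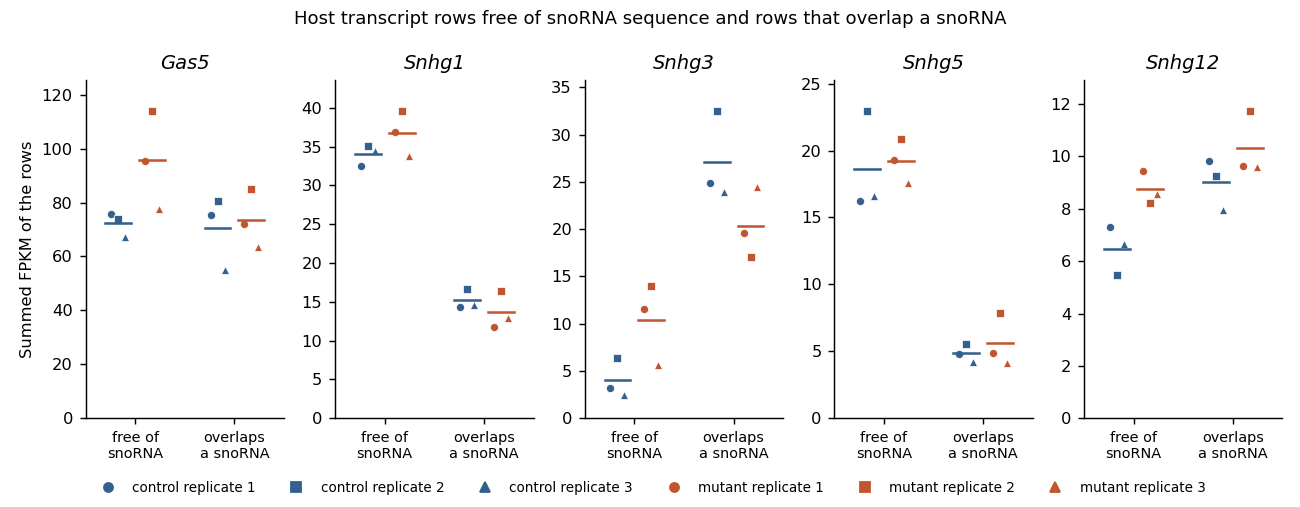
Summed FPKM of the rows free of snoRNA sequence and of the rows that overlap a snoRNA, for the 5 hosts that have both, in each control and mutant library with a line at the group mean (each panel has its own axis from 0). For Gas5 and Snhg12 the mutant libraries lie above the control libraries in the rows free of snoRNA sequence and mix with them in the other class.

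Over all 29 rows with no filter 7 had every mutant library above every control library, beside 3.66% of all 60776 rows, and 0 had every mutant library below, beside 6.72%. Those 60776 rows include the rows of genes that failed the filter, so the shares are not over rows of like level. Over the 13260 genes that passed it, 1026 (7.74%) were separated as higher and 1728 as lower. Of the 7 host rows, 6 were spliced rows and 1 overlapped a snoRNA, and 3 of the 7 had mean levels under 2 FPKM in both groups. The main spliced row of Snhg6 (ENSMUST00000182580) was at 13.7, 18.1 and 17.8 FPKM in controls and 22.7, 24.4 and 19.2 FPKM in mutants. A spliced row of Gas5 (ENSMUST00000162558) was at 32.5, 34.0 and 26.0 FPKM in controls and 43.6, 51.4 and 37.9 FPKM in mutants. A Gas5 row that overlaps a snoRNA (ENSMUST00000159157) was at 9.31, 8.48 and 4.62 FPKM in controls and 9.69, 9.55 and 9.50 FPKM in mutants, so separation was not limited to spliced rows. These rows were picked after their values were seen. For Snhg5 the rows showed how unstable the division can be. Its spliced row ENSMUST00000182232 was at 14.8 FPKM in mutant replicate 2 and 1.15 FPKM in mutant replicate 1, and ENSMUST00000180563 was at 6.08 and 18.1 FPKM in the same libraries, while the sum of all Snhg5 rows stayed between 20.8 and 28.8 FPKM over all 6 libraries.

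Gas5 and Snhg1 each share a start region with a gene on the opposite strand. Over the classed hosts 14 nearest neighbours were found by position in GENCODE M21, and 11 passed the filter. Slc3a2, which encodes the heavy chain of the paired amino acid transporters, starts 106 bases upstream of Snhg1 on the opposite strand. It was at 25.2, 26.1 and 25.4 FPKM in controls and at 63.6, 54.9 and 47.3 FPKM in mutants. Slc3a2 rose in mutants, with a log2 fold change of 1.07 and a standard error of 0.11 (adjusted p = 0.0185 from limma), while Snhg1 had a log2 fold change of 0.03 with a standard error of 0.09. The log2 ratio of Slc3a2 to Snhg1 was -0.916 ± 0.0463 in controls and 0.121 ± 0.223 in mutants (SD, n = 3), without overlap and at the smallest p that the exact permutation test allows here, 0.1. The adjusted p of Slc3a2 was 0.12, 0.0755 and 0.0771 without control replicate 1, 2 or 3 and 0.00102 without the library labelled mutant replicate 3, with log2 fold changes of 1.06 to 1.18. It was also above 0.05 with the erythroid covariate (0.108), with no filter (0.125), from the most abundant row (0.0953) and with a replicate block (0.0616). Slc3a2 was below Snhg1 in each control library and near it or above it in the mutant libraries. Most of the sequence between them lies in the part of the RefSeq window of Snhg1 at chr19:8723387-8723536 (GRCm38.p6, plus strand), shown with part of a pyrimidine run at the start and the letters of TATAAA, here on the minus strand, in capitals.
Snhg1: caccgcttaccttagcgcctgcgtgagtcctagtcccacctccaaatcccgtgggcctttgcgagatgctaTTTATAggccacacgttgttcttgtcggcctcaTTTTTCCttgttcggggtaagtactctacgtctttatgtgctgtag
The letters TGATGNAA, the core of the element bound by ATF4, were in neither the whole window of Snhg1 nor that of Slc3a2 on either strand, and were in 3.97% of all promoter windows.

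**Figure D4:**
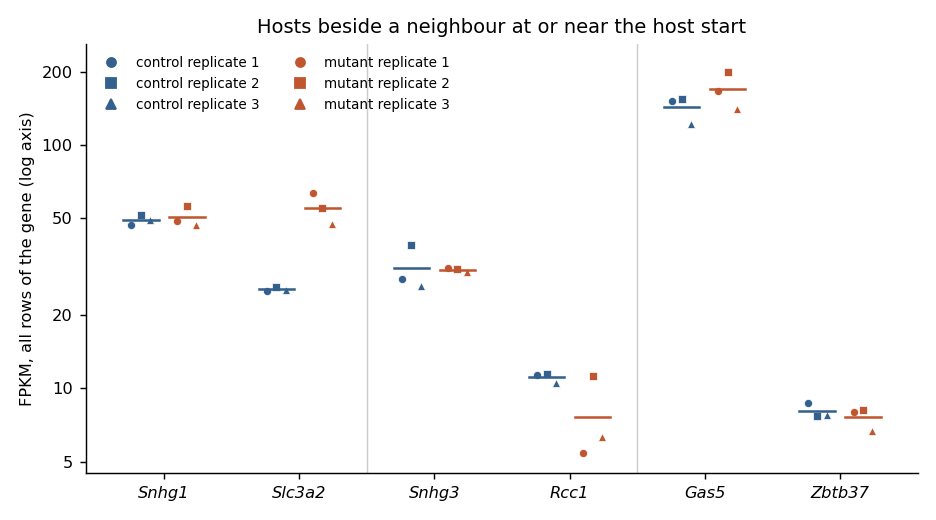
FPKM of 3 hosts and of a neighbour at or near the start or end of each (log axis), in the 3 control and 3 mutant libraries with a line at the group mean. Slc3a2 is separated between the groups, at 25.2 to 26.1 FPKM and 47.3 to 63.6 FPKM, while Snhg1 on the other side of their shared start region is at 46.8 to 56.1 FPKM in all 6 libraries.

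Rcc1, the exchange factor of the nuclear transport GTPase Ran, overlaps Snhg3 on the same strand, so reads of the shared stretch cannot be told apart with certainty. It was at 11.4, 11.5 and 10.6 FPKM in controls and at 5.45, 11.2 and 6.32 FPKM in mutants (log2 fold change -0.55, adjusted p = 0.292 from limma). Mutant replicate 2 stayed inside the control range for Rcc1, and the same library had the highest value of the spliced Snhg3 row. Zbtb37, which overlaps the start of Gas5 on the opposite strand, was at 8.69, 7.70 and 7.78 FPKM in controls and 7.97, 8.15 and 6.68 FPKM in mutants. Tcf24, upstream of Snhg6, was low in every library and had a log2 fold change of -0.56 (adjusted p = 0.205 from limma). A further 6 neighbours, Trnau1ap, Syncrip, Zfp949, Wdr74, Mcmdc2 and Phactr4, had log2 fold changes between -0.20 and 0.09, none with an unadjusted p under 0.05.

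Snhg12 was the host with the clearest separation in summed level, and its RefSeq window at chr4:132308578-132308727 (GRCm38.p6, plus strand) is shown with the pyrimidine run at its start in capitals.
Snhg12: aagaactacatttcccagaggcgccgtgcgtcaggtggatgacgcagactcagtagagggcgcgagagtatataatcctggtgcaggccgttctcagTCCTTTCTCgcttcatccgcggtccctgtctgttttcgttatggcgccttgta

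The hosts were set beside genes that share their design. Of 15 other noncoding hosts 9 were listed and 8 fitted, with 5 higher and 3 lower in mutants and a median log2 fold change of 0.0477. After rescaling to a common sum of FPKM 3 of 8 were higher, where 28.8% of all genes were, and the median was -0.0279, beside -0.0942 over all genes. The largest difference among them was in 2410006H16Rik, at 37.0, 35.5 and 41.9 FPKM in controls and at 79.9, 64.2 and 44.4 FPKM in mutants (log2 fold change 0.67, adjusted p = 0.186 from limma). Its groups did not overlap, and its lowest mutant value came from the library labelled mutant replicate 3. Zfas1 was at 33.5 to 43.4 FPKM in controls and 31.3 to 41.4 FPKM in mutants, and Dancr had a log2 fold change of -0.26 (adjusted p = 0.556 from limma).

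Hosts that encode proteins were counted in the same way. Of 22 ribosomal protein genes that carry snoRNAs 21 were higher in mutants, 8 at an unadjusted p under 0.05, beside 5.57% of all genes, and in 14 the groups did not overlap, beside 7.74% of all genes. Their median log2 fold change was 0.225. After rescaling to a common sum of FPKM it was 0.14, with 20 of 22 higher, where 28.8% of all genes were. Of the 22, 2 were then at an unadjusted p under 0.05, beside 15% of all genes. That count was 3 with the erythroid level as a covariate, beside 10.4%, and 3 without the library labelled mutant replicate 3, beside 15.3%. An example is Rps12, at 235, 247 and 255 FPKM in controls and 316, 299 and 345 FPKM in mutants (log2 fold change 0.38, adjusted p = 0.161 from limma). Rpl7a had a log2 fold change of 0.53 with overlapping groups (adjusted p = 0.236 from limma). None of the 22 had an adjusted p under 0.05. Of 20 coding hosts outside the ribosome 18 were higher, with a median of 0.135. Of the 20, 4 had an unadjusted p under 0.05, beside 15% of all genes in either direction and 5.57% higher, and none passed after adjustment. After rescaling to a common sum of FPKM 15 of 20 were higher, where 28.8% of all genes were, with a median of 0.0522. An unadjusted p under 0.05 was then found in 3, beside 15% of all genes. Without mutant replicate 2, 16 of 20 were higher with a median of 0.0835, where 38.7% of all genes were higher. With the erythroid covariate 8 of the 20 had an unadjusted p under 0.05, beside 10.4% of all genes. Without the library labelled mutant replicate 3 it was 5, beside 15.3%, and 1 had an adjusted p under 0.05 (limma), beside 1.98% of all genes. Eef2, the elongation factor of ribosome translocation, was at 445, 480 and 508 FPKM in controls and 634, 630 and 619 FPKM in mutants (log2 fold change 0.40, adjusted p = 0.161 from limma). Ppan, a ribosome assembly factor, had a log2 fold change of 0.39 (adjusted p = 0.153 from limma).

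**Figure D5:**
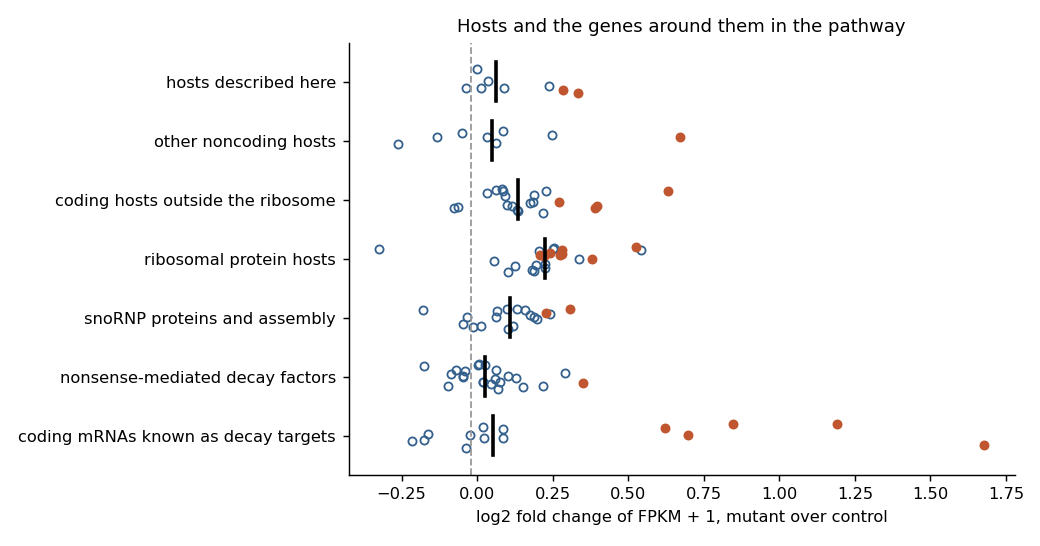
Log2 fold change of FPKM + 1 in mutant over control hearts for each fitted gene of the snoRNA hosts and of 6 related lists. Filled points have an unadjusted p under 0.05, black bars are list medians and the dashed line is the median of all genes fitted; the bar of the ribosomal protein hosts stands at 0.225 and that of the hosts described here at 0.0613.

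The proteins that bind snoRNAs and the factors of decay were compared in the same fit. Of 18 snoRNP proteins and assembly factors 14 were higher and 4 lower in mutants, with 2 at an unadjusted p under 0.05, both higher, beside 5.57% of all genes. After rescaling to a common sum of FPKM 11 of 18 were higher and 0 were at that threshold. With the erythroid covariate 5 of 18 were at it, beside 10.4% of all genes, and without the library labelled mutant replicate 3 it was 3 of 18, beside 15.3%. The 2 genes were Ruvbl2, an ATPase of snoRNP assembly (24.0, 22.5 and 25.7 FPKM in controls, 28.2, 28.6 and 28.1 FPKM in mutants, adjusted p = 0.255 from limma), and Nhp2, a core protein of H/ACA particles (adjusted p = 0.276 from limma). Of 23 nonsense-mediated decay factors 16 were higher and 7 lower, with a median of 0.0256. After rescaling to a common sum of FPKM 6 of 23 were higher, where 28.8% of all genes were. The release factor gene Etf1 had the smallest p among them (log2 fold change 0.35, adjusted p = 0.313 from limma). The decapping enzyme gene Dcp2 followed, with a log2 fold change of 0.22.

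Coding mRNAs that are known targets of nonsense-mediated decay were the remaining comparison. Their number was 14, with 9 higher and 5 lower in mutants and a median of 0.0528. After rescaling to a common sum of FPKM 7 of 14 were higher, where 28.8% of all genes were, with a median of -0.0232. There 3 of 14 had an adjusted p under 0.05 (limma), beside 0.836% of all genes. Without the library labelled mutant replicate 3, 7 were higher and 5 had an adjusted p under 0.05, beside 1.98% of all genes, against 1 with all libraries. At an unadjusted p under 0.05 there were 5, all higher, beside 5.57% of all genes that were higher at that threshold. Atf4, a transcription factor of the integrated stress response whose upstream reading frames expose its mRNA to decay, rose from 52.5, 58.1 and 57.5 FPKM in controls to 152, 137 and 103 FPKM in mutants (log2 fold change 1.19, standard error 0.14, adjusted p = 0.0311 from limma). For Atf4 the adjusted p was 0.172, 0.0908 and 0.107 without control replicate 1, 2 or 3, 0.0795 without mutant replicate 1 and 0.00055 without the library labelled mutant replicate 3. The adjusted p of Atf4 was 0.133 with the erythroid covariate, 0.213 with no filter, 0.195 from the most abundant row, 0.06 without a trend and 0.0763 with a replicate block. Gadd45a, a growth-arrest gene, had a log2 fold change of 0.85 (adjusted p = 0.0952 from limma). Both are also genes of the stress response, so the list holds genes that can move for more than 1 reason. Atf4 was at its lowest mutant level in the library labelled mutant replicate 3, as were all 8 hosts.

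The hosts varied partly together from library to library. The mean of their standardized log2 values was -0.628, 0.55 and -0.754 in controls and 0.214, 1.07 and -0.457 in mutants, so control replicate 2 lay above 2 of the 3 mutant libraries. Among 9033 genes with a mean of at least 5 FPKM, the 5 whose log2 values followed that mean most closely over the 6 libraries were Lyar, Snx2, Cdk13, Srsf9 and Rdh11, with Pearson r from 0.977 to 0.988. Lyar, a nucleolar protein gene, was at 12.2, 16.6 and 11.7 FPKM in controls and 16.6, 20.4 and 12.5 FPKM in mutants. In all 91 genes had an r above 0.9, the points are 6 libraries that also differ in erythroid share, and the value is a description. Erythroid markers were at their lowest share, 10.8%, in mutant replicate 2, where 6 of the 8 hosts were highest. Among the controls the order was not the same, since the lowest share, 12.0%, was in control replicate 3, where 5 of the 8 hosts were lowest. With the erythroid level of each library as a covariate the median log2 fold change of the hosts was 0.223, with 6 of 8 higher and 3 at an unadjusted p under 0.05, beside 10.4% of all genes in that fit. There 7029 of the 13260 genes were higher, with a median of 0.0132.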

How the data were processed

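RNA of embryonic hearts was sequenced after removal of ribosomal RNA, in 3 control and 3 mutant libraries that keep strand. The authors deposited 1 table of FPKM per transcript and library. The submitters' processing notes name Bowtie2 2.2.8, HISAT2, StringTie 1.3.1, Cuffdiff 2.1.1 and the mm9 build without giving their roles, and the annotation release is not given in the sources used here. Transcript rows were summed per gene, 1 was added, and log2 values were compared with limma 3.58.1 in R 4.3.3 (moderated test with an intensity trend, two-sided) over genes at 1 FPKM or more in 3 or more of 6 libraries, with Benjamini-Hochberg adjustment. Because 1 is added, fold changes of low genes come out too small. The fit was tested on simulated data. A gene is said to have risen or fallen at an adjusted p under 0.05. Nothing states that replicates with the same number share a litter, and p-values measure the spread between pools.

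The genes named were all hosts, Mrps5, Atf4, the 2 genes of each list with the smallest unadjusted p, the fitted neighbours of hosts and the 5 genes most like the hosts' mean. Zfas1 was added after its values were seen. Of these, 1 fitted neighbour is not reported here. The hosts and lists were chosen with earlier results of these data known. snoRNA and transcript sequences came from GENCODE M21 and promoters from RefSeq. Alternatives were another value added to FPKM, other filters, rescaling, an erythroid covariate, a replicate block, the most abundant row, limma without a trend, leaving out each library, and, chosen after seeing the data, sums over row classes.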

Additional observations from a re-analysis of the deposited data

How the results depend on the processing

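Over 22 alternatives no host passed an adjusted p of 0.05 except Snhg3 in its spliced rows without mutant replicate 3. Snhg12 and Snhg6 were higher in each alternative that gave them a value (rows that overlap a snoRNA gave none for Snhg6), with log2 fold changes of 0.18 to 0.43 and 0.25 to 0.43. Of 169 host values under alternatives, 147 kept direction and side of the threshold and 21 changed sign, in hosts whose interval included 0. Causes were not tested. Snhg3 had a log2 fold change of -0.0016 with 5 added to FPKM, -0.0814 with a common sum, -0.0028 with upper quartile scaling, -0.0218 with the erythroid covariate, -0.398 from its most abundant row and from rows that overlap a snoRNA, and -0.1032 to 0.1671 leaving out 1 library. Snhg4 had -0.0672 with a common sum, 0.2421 with the erythroid covariate, -0.1061 from its most abundant row and -0.1738 (without mutant replicate 2) to 0.1343 leaving out 1 library. Snhg1 had -0.0482 with a common sum, -0.0413 (without mutant replicate 2) to 0.0865 leaving out 1 library and -0.1429 from rows that overlap a snoRNA. Snhg5 had -0.2481 from its most abundant row, -0.0166 (without mutant replicate 2) to 0.2319 leaving out 1 library and -0.0199 from spliced rows at a common sum. Snhg8 had -0.1059 to 0.0043 (without control replicate 2) leaving out 1 library.

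Hosts at an unadjusted p under 0.05 numbered 2, but 0 with a common sum, 1 from the most abundant row, 4 from spliced rows, 4 from spliced rows without mutant replicate 3, 1 from rows that overlap a snoRNA, and 0 (without control replicate 3) to 3 (without mutant replicate 3) leaving out 1 library. The median was 0.0613, but -0.0067 from the most abundant row, -0.0204 with a common sum, 0.2226 with the erythroid covariate, 0.3321 from spliced rows, 0.2491 and 0.3989 from spliced rows without mutant replicate 2 or 3, 0.2503 from spliced rows at a common sum, and -0.0114 (without mutant replicate 2) to 0.1995 (without control replicate 2) leaving out 1 library. Over all genes 1990 had an unadjusted p under 0.05, but 1314 at a mean of at least 5 FPKM and 1179 to 2173 leaving out 1 library. It was 1994 with a common sum and 1577 from the most abundant row. With hosts taken from spliced rows it was 1992, and 2013 without mutant replicate 3. With hosts taken from rows that overlap a snoRNA it was 1989. At an adjusted p under 0.05 there were 11, but 6 with no filter, 111 with a common sum, 7 with the erythroid covariate, 4 from the most abundant row, 6 without a trend, and 3 to 261 leaving out 1 library (126 without mutant replicate 2, 261 without mutant replicate 3). With hosts taken from spliced rows it was 126 and 262 without mutant replicate 2 or 3 and 111 at a common sum.

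The calls of Slc3a2 and Atf4 were lost with no filter, with the erythroid covariate, from the most abundant row and, for Atf4, without a trend. Their log2 fold changes there were 1.06 or more for Slc3a2 and 1.19 or more for Atf4.

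A replicate block took the adjusted p of Slc3a2 to 0.0616 and that of Atf4 to 0.0763 and left 4 genes and no host at an adjusted p under 0.05. At an unadjusted p under 0.05 it gave 3 hosts, with Gas5 beside Snhg6 and Snhg12, where 2221 of 13260 genes passed that threshold. Deviations of same-numbered libraries correlated at 0.217, 0.11 and 0.0901, not over 0.1 in each pair, and each library correlated best with its own number, a hint from the data rather than the design. Depth is unknown, so no limit from counting can be given.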
